A study of Danio rerio with 12 samples.

Results

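The keratin genes described here are the 9 whose symbol in the deposited tables is krt4, krt5, krt8, krt15, krt17, krt18, krtt1c19e, cyt1 or cyt1l, out of 25680 genes. All 9 were found once each and all 9 passed the filter on low counts in every comparison. RNA was sequenced from zebrafish in 12 libraries. From whole embryos, 25 hours post fertilisation (hpf), came 3 libraries of double mutants (DM), which carry inactivating mutations in tet2 and tet3. Another 3 came from their siblings, in which wild type animals are mixed with heterozygotes for tet2, tet3 or both. From hearts taken out by hand at 48 hpf came 2 libraries each of DM, of siblings defined in the same way and of wild type (WT) animals, numbered 1 and 3. All groups are labelled with the strain background AB and were untreated, although the growth protocol derives wild type embryos from crosses of AB with TU, so strain and genotype cannot be told apart in comparisons with WT hearts. The labels do not give how many animals went into a library or whether libraries came from separate clutches.

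Keratins are the intermediate filament proteins of epithelial cells. A filament is built from pairs of a type II and a type I keratin, so epithelia express at least a gene of each type. At these stages the zebrafish skin consists of an outer periderm over a basal layer of keratinocytes. Tet2 and Tet3 are dioxygenases that oxidise 5-methylcytosine in DNA, and the mutant comparisons ask how gene expression differs where both are inactivated. Of the 9 genes, krt4, krt5 and krt8 are type II and the other 6 are type I. In zebrafish, krt4 and cyt1 are used as markers of the outer skin layer and krtt1c19e as a marker of basal keratinocytes. Krt8 and Krt18 are the partners of simple epithelia in vertebrates, and Krt15 is known from basal keratinocytes of mammals.

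By the deposited coordinates (GRCz10), 7 of the 9 genes have neighbours among them. On chromosome 23 lie krt5 (10238226 to 10242488), krt8 (10314656 to 10319318) and krt18 (10412881 to 10416784). On chromosome 19 lie krtt1c19e (5422878 to 5429446), cyt1l (5439935 to 5452965), cyt1 (5445934 to 5464258) and krt17 (5450844 to 5456086). Lone among the 9 on their chromosomes are krt4 (chromosome 6, 39310962 to 39315491) and krt15 (chromosome 11, 11532157 to 11534848). All 5243 bp of the krt17 span lie inside the span of cyt1, 2122 bp of it also inside that of cyt1l, and the spans of cyt1 and cyt1l share 7032 bp. Outside the 9, krt92 shares 8239 bp with cyt1l and 2240 bp with cyt1, and krt91 shares 2182 bp with cyt1. How reads in shared sequence were counted, and whether strand was used, is not given in the sources used here. Counts of krt17, cyt1 and cyt1l are therefore uncertain, as are those of krt18 beside further genes annotated as KRT18 copies.

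Levels are given as CPM, counts scaled to a library's total, which compare a gene between libraries but not genes with each other, since no transcript length enters. Libraries held 8341467 to 16700992 counts in embryos and 3289161 to 5963478 in hearts. The 11 cardiomyocyte genes listed as markers summed to 15026 to 52739 CPM in hearts against 445 to 505 CPM in embryos. Lens and retina genes summed to 3254 CPM in sibling heart 1 and 1096 CPM in DM heart 1, against 22.8 to 73.2 CPM in the other 4 hearts. Keratin differences between genotypes in hearts are therefore in part also given without the sibling and DM hearts numbered 1. That leaves 1 library in each of these groups. The results of the marker lists in hearts are not given in this way, and rest on all 6 hearts. Neither are the comparison of control hearts with embryos, the ratios between keratins, the make-up of their counts and the search for similar profiles. Sibling heart 1 also had the lowest cardiomyocyte sum, 15026 CPM against 33041 to 52739 CPM in the others. Neuron genes ran from 271 CPM in WT heart 1 to 2952 CPM in WT heart 3, and skeletal muscle genes were highest in DM heart 1, at 4651 CPM. In bulk libraries, fewer cells of a type and less RNA per cell cannot be told apart.

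In whole embryos, none of the 9 keratins differed between DM and siblings by the main test. Fitted log2 fold changes of DM over sibling ran from 0.02 to 0.49. For krt15 and krtt1c19e the sign was not stable, since their group means were lower in DM and the fit with replicate pairs gave -0.020 for both. Only krt8 had all DM embryos above all sibling embryos. The embryo libraries gave 2.93% to 4.11% of their counts to the 9 genes, and krt4 alone stood at 20691, 22181.5 and 22604 CPM in siblings, with 22519, 27937 and 25525 CPM in DM. The lowest DM value of krt4 thus lay below the highest sibling value. Its fitted difference was 0.29 ± 0.22 (log2, SE).

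The type II gene krt5 stood at 3408, 2867 and 3084 CPM in sibling embryos and at 3583, 4021 and 3062 CPM in DM embryos, again with overlap. krt8, the simple epithelial type II keratin, was at 1617, 1939 and 1706 CPM in siblings, with 1968, 2424 and 2157 CPM in DM, a fitted difference of 0.39 ± 0.23 on the log2 scale. Of all 17831 genes tested, 3.02% had every DM embryo above every sibling embryo, as krt8 had. Its partner krt18 was at 504, 634 and 551 CPM in siblings, with 587, 759 and 697 CPM in DM, overlapping in a single library of each group. A further gene, annotated as KRT18 (1 of many), was at 63.7, 72.9 and 75.4 CPM in siblings, with 58.0, 64.9 and 73.1 CPM in DM.

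Among the remaining type I genes, cyt1 was at 964, 1373 and 1137 CPM in sibling embryos and at 1092, 1704 and 1665 CPM in DM embryos. cyt1l had the largest fitted difference of the 9 (0.49 ± 0.34 on the log2 scale), at 1753, 2977 and 2233 CPM in siblings, with 2039, 3657 and 3544 CPM in DM. In both genes the DM embryo numbered 1 was the low one and the sibling numbered 2 the high one of its group. krt17 was at 259, 408 and 207 CPM in siblings, with 301, 488 and 306 CPM in DM. The basal layer gene krtt1c19e was at 106, 143 and 193 CPM in siblings, with 92.1, 143 and 184 CPM in DM, a fitted difference of 0.02 ± 0.34. krt15 was the keratin with the fewest counts, at 7.36, 10.1 and 10.7 CPM in siblings, with 6.27, 8.87 and 11.8 CPM in DM. These last 2 genes therefore spanned nearly the same range in both genotypes.

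By edgeR's quasi-likelihood test with Benjamini-Hochberg adjustment over all genes, no keratin passed an FDR of 0.05, and neither did any other gene (0.0% of 17831 genes). The adjusted p was 0.72 for 7 keratins and 0.98 for krt15 and krtt1c19e, and no keratin had an unadjusted p under 0.05, against 585 of all genes (3.28%). DESeq2 called 34 genes (0.191%) and no keratin, and the authors' deposited table calls 47 of 17950 genes (0.262%), again without a keratin. The median log2 fold change of the 9 was 0.35, beside 0.02 over all genes tested, and 0.17 without DM embryo 2.

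Embryo libraries with the same number deviated from their group means together, at correlations across genes of 0.848, 0.676 and 0.260, so differences within numbered pairs were also read. Pair 3 is the least certain, since DM 3 correlated more with sibling 2 (0.516) than with sibling 3, and the labels state no pairing. In pair 1, 7 of the 9 keratins were higher in DM than in the sibling, with a median log2 ratio of CPM of 0.18, in pair 2 also 7 with a median of 0.30, and in pair 3 again 7 with a median of 0.34. krt4, krt8, krt18, cyt1, cyt1l and krt17 were higher in DM in every pair, and krtt1c19e was lower in every pair. For krt8 the log2 ratios were 0.28, 0.32 and 0.34, the narrowest set of these 6, whereas for cyt1l they were 0.22, 0.30 and 0.67. The share of all genes with the same sign in every pair is not given here, so these counts have no background to be read against. With the replicate number as a block, edgeR called 2453 of 17831 genes (13.8%; 4.37% higher in DM) and none of the keratins. Their adjusted p-values in the blocked fit were 0.072 for cyt1l, 0.080 for krt17, 0.090 for cyt1, 0.11 for krt8, 0.13 for krt18, 0.28 for krt4 and 0.30 for krt5, with 5 of the 9 at an unadjusted p under 0.05, against 33.1% of all genes. In the blocked fit without pair 3, 7 keratins passed as higher, all but krt15 and krtt1c19e, where 6.31% of 18279 genes did, and without pair 1 or pair 2 none passed. The call of any keratin in embryos therefore depended on leaving out pair 3.

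**Figure D1:**
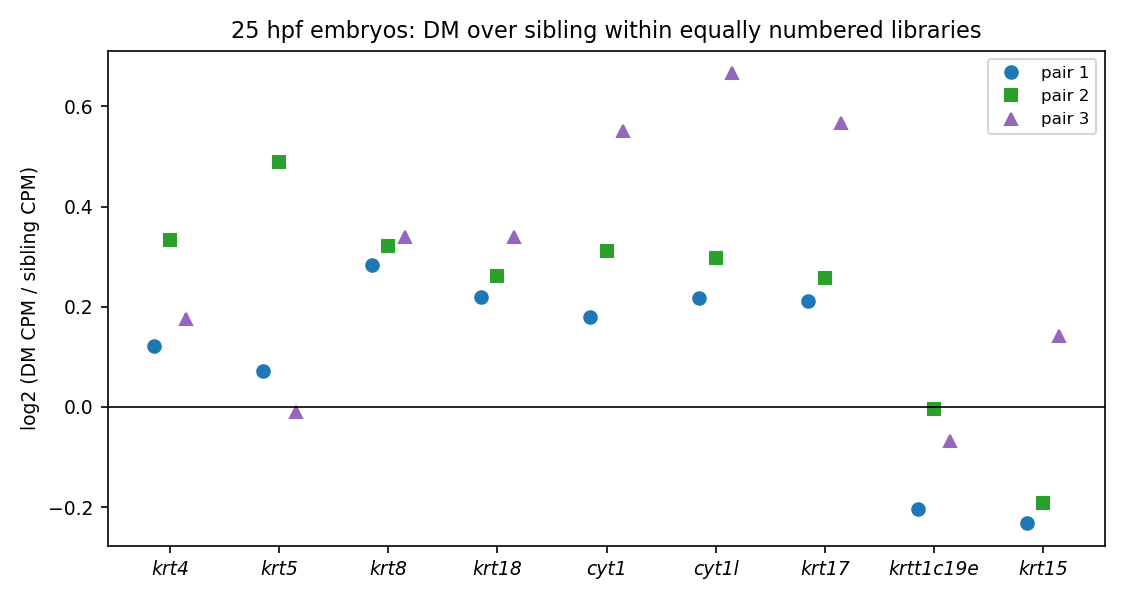
Each point is the log2 ratio of CPM, DM over sibling, between the embryo libraries that carry the same number, for the 9 keratins (x axis) and pairs 1 to 3 (symbols). In all 3 pairs 6 genes lie above 0, krtt1c19e lies below 0 in all 3, and cyt1l reaches 0.67 in pair 3.

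The fitted embryo differences were also smaller once a smooth trend with the genomic span of genes had been removed from each library. The median over the 9 then dropped from 0.35 to 0.16 (log2), and krt15 and krtt1c19e took negative values of -0.19 and -0.20. cyt1 kept 0.43, and no keratin was called with this correction, with or without the block.

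Genes of the layers that express keratins were read beside them from lists of known markers. None of the genes in the skin lists passed edgeR without the block, and neither did any of the 17831 genes tested. In the blocked fit, where 4.37% of all genes were called higher and 9.39% lower, 2 of 16 periderm genes were called higher in DM embryos and none lower: anxa1b, an annexin of the outer layer (0.62 ± 0.16 on the log2 scale, adjusted p = 0.014), and icn2, an ictacalcin (0.48 ± 0.16, adjusted p = 0.044). Their list had a median of 0.23, beside 0.02 over all genes. Of 18 basal epidermis genes, the adhesion molecule epcam was called higher (0.51 ± 0.16, adjusted p = 0.039) and frem2a, which anchors epidermis to its matrix, lower (-0.64 ± 0.18, adjusted p = 0.022), and the list's median was -0.13. Of 11 ionocyte and mucous cell genes tested, the transcription factor gene gcm2 was called higher (0.65 ± 0.17, adjusted p = 0.013) and the calcium channel gene trpv6 lower (-1.17 ± 0.25, adjusted p = 0.0044). None of 10 desmosome genes, whose products link keratin filaments to cell contacts, passed.

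Hatching gland genes, a further epithelial cell type, had 3 of 8 called higher in DM embryos in the blocked fit, where 4.37% of all genes were. The hatching enzyme gene he1b was at 328, 597 and 787 CPM in siblings, with 406, 1003 and 1426 CPM in DM, and the other 2 calls were the 2 genes annotated as ctslb. Summed over the list, the level was 3739 to 4608 CPM in siblings and 4197 to 6146 CPM in DM. Whether these cell types bear on the keratin levels was not tested.

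All 9 keratins were lower in hearts of control animals (WT and sibling) than in sibling embryos. The fitted log2 differences ran from -6.06 for krt5 and -5.67 for krt4 over -5.10 for krt17, -5.03 for cyt1l, -3.38 for cyt1, -3.34 for krtt1c19e and -2.54 for krt15 to -2.38 for krt8 and -1.87 for krt18. For krt5 this is a 66.8-fold lower level and for krt18 a 3.65-fold lower level. The simple epithelial partners were thus the least reduced of the 9 in this fit, which averages WT and sibling hearts. By group means, the same held in WT hearts alone but not in sibling hearts alone. There cyt1 stood at 24.2% of the sibling embryo mean, krt18 at 22.1%, krtt1c19e at 19.6%, krt15 at 18.9% and krt8 at 14.1%. By edgeR all 9 passed, with adjusted p-values from 4.96e-07 for krt5 to 0.025 for krt15, where 30.5% of 19433 genes were called lower. No control heart reached the lowest sibling embryo in any of the 9, against 30.9% of genes with such a separation. The call of krt15 was lost without sibling embryo 2 (adjusted p = 0.065) or 3 (0.055), WT heart 3 (0.055) or sibling heart 3 (0.072), and the other 8 passed with each library left out. Without WT heart 1 the difference of krt15 was -5.91, without WT heart 3 that of krt4 was -6.42, and without sibling heart 1 that of krt17 was -7.38. Tissue, stage, dissection and the amplification of heart RNA differ together between these groups and cannot be told apart.

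The 9 keratins summed to 858 to 3000.5 CPM in hearts. Ratios between the genes within a library were compared with those in embryos. krt8 gave 3.06 to 3.35 counts per krt18 count in embryos and 1.75 to 3.44 in hearts, and krt5 gave 0.120 to 0.165 counts per krt4 count in embryos and 0.0847 to 0.241 in hearts, so both ranges overlapped. cyt1l gave 1.82 to 2.17 counts per cyt1 count in embryos and 0.331 to 0.777 in hearts, so these ranges did not overlap, with the reservation on shared spans above. krtt1c19e gave 0.00409 to 0.00856 counts per krt4 count in embryos and 0.0235 to 0.152 in hearts.

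**Figure D2:**
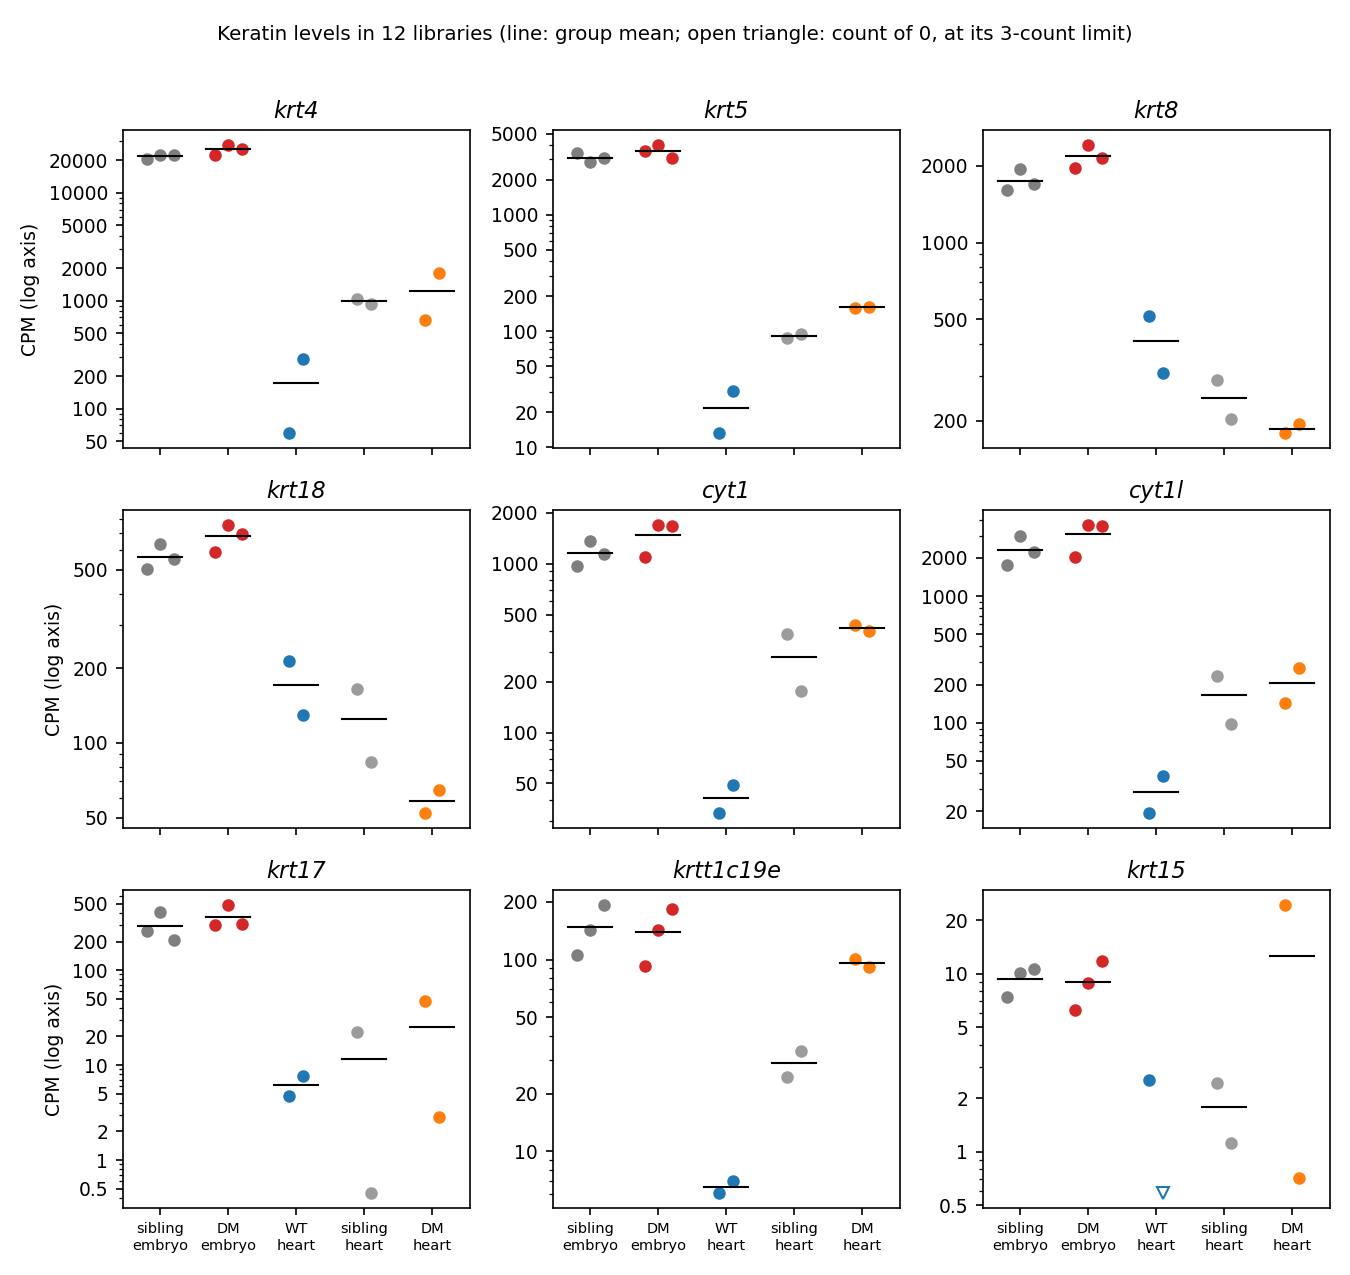
Level of each keratin in all 12 libraries, in CPM on log axes, by group; lines are group means and an open triangle marks a count of 0 at the limit of 3 counts. In every panel but those of krt15 and krtt1c19e all hearts lie below all embryos, and within hearts krt8 and krt18 descend from WT to DM where krt5, cyt1 and krtt1c19e ascend.

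Between DM and WT hearts, where strain and genotype cannot be told apart, keratins separated in opposite directions. The genes krt4, krt5, krtt1c19e, cyt1 and cyt1l were higher in both DM hearts than in both WT hearts, and krt8 and krt18 were lower. A separation upward was seen in 32.9% of 16998 genes and a separation downward in 8.99%. edgeR called none of these differences and no gene at all, whereas DESeq2 called 5 of them, among 127 of 15020 genes (0.846%).

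In hearts krtt1c19e, krt5 and cyt1 ascended from WT over sibling to DM without overlap, and krt8 descended without overlap, where 2.59% of 16998 genes ascended in that way and 0.653% descended. The level of krtt1c19e was 6.04 and 6.99 CPM in WT hearts, 24.3 and 33.5 CPM in sibling hearts and 101 and 92.1 CPM in DM hearts, from 36 to 548 counts a library. The 3 groups did not overlap, and DM heart 1 lay above the lowest embryo, at 92.1 CPM. DM over WT was 3.59 ± 0.41 on the log2 scale. Its adjusted p was 0.35 by edgeR and 1.05e-10 by DESeq2, and 2.57e-13 in the authors' deposited table, with a log2 fold change of 3.12 there.

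cyt1 stood at 33.2 and 48.7 CPM in WT hearts, 384 and 177 CPM in sibling hearts and 431 and 400.3 CPM in DM hearts. WT hearts lay well below the other 4, and DM over WT was 3.05 ± 0.47 (log2). DESeq2 gave an adjusted p of 1.50e-06 and edgeR one of 0.65. cyt1l was at 19.3 and 37.8 CPM in WT hearts, 236 and 97.99 CPM in sibling hearts and 143 and 269 CPM in DM hearts, so that siblings and DM overlapped.

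The outer layer gene krt4 was at 59.2 and 289.5 CPM in WT hearts, 1034 and 942 CPM in sibling hearts and 663 and 1814 CPM in DM hearts. Its sibling values lay inside the DM range, and the 2 WT hearts differed from each other more than the sibling hearts did. krt5 was at 13.2 and 30.5 CPM in WT hearts, 87.6 and 94.9 CPM in sibling hearts and 159.8 and 163 CPM in DM hearts, an order without overlap like that of krtt1c19e. Relative to the mean of sibling embryos, krt5 stood at 0.701% in WT, 2.92% in sibling and 5.17% in DM hearts, and krtt1c19e at 4.41%, 19.6% and 65.3%.

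The simple epithelial genes ran the other way. krt8 was at 516 and 308 CPM in WT hearts, 290.0 and 204 CPM in sibling hearts and 179 and 194 CPM in DM hearts. krt18 was at 214 and 129 CPM in WT hearts, 165 and 83.7 CPM in sibling hearts and 52.0 and 64.8 CPM in DM hearts. krt8 and krt18 thus had their lowest values in the DM hearts, with siblings between for krt8 and overlapping WT for krt18. KRT18 (1 of many) was at 40.7 and 66.8 CPM in WT, 63.2 and 40.0 CPM in sibling and 33.8 and 27.8 CPM in DM hearts. DM over WT was -1.45 ± 0.41 for krt8 and -1.86 ± 0.47 for krt18 (log2).

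krt17 and krt15 did not follow either order. krt17 was at 4.70 and 7.76 CPM in WT hearts, 22.5 and 0.446 CPM in sibling hearts and 47.1 and 2.83 CPM in DM hearts, with the high value in heart 1 of each of the latter groups. The value of sibling heart 3 rests on 2 counts, with an exact Poisson 95% interval of 0.0541 to 1.61 CPM that covers counting error only. krt15 was at 24.5 CPM in DM heart 1, on 133 counts, and at 0.706 to 2.52 CPM in the other hearts except WT heart 3, where the limit of 3 counts set for a count of 0 is 0.582 CPM.

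By edgeR, DM against WT hearts had no call among the 9 and none among 16998 genes (0.0%). Of the 9, 7 had an unadjusted p under 0.05, all but krt15 and krt17, against 1254 genes (7.38%). DESeq2 called 127 of 15020 genes (0.846%; 0.366% higher and 0.479% lower). Among them were krtt1c19e, cyt1, krt5 and cyt1l as higher and krt18 as lower in DM hearts, with adjusted p-values of 0.00025 for krt5, 0.010 for cyt1l and 0.040 for krt18. krt4 (0.062) and krt8 (0.081) missed the threshold. The authors' deposited table calls the same 5 keratins among 289 of 14124 genes (2.05%). With no filter on low counts edgeR called krtt1c19e, with an adjusted p of 0.044, as 1 of 3 genes in all (0.0126%). The median over the 9 was 2.59 (log2), beside 0.02 over all genes.

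Leaving out each heart library in turn, DESeq2 called 2 to 7 keratins, among 30 to 263 genes (0.186% to 1.98%), and krtt1c19e and cyt1 were called each time. krt18 was lost without WT heart 1, DM heart 1 or DM heart 3 (adjusted p = 0.52, 0.99 and 0.16), krt5 without DM heart 1 or 3 (0.078 and 0.081), and cyt1l without WT heart 1 or DM heart 3 (0.17 and 0.34). Leaving out a WT or DM heart leaves 1 library of that group, so those calls take its spread from the other groups. Without the sibling and DM hearts numbered 1, the 2 libraries with lens transcripts, only DM heart 3 is left of its group. The log2 difference over WT was then 3.55 for krtt1c19e and 3.02 for cyt1.

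**Figure D3:**
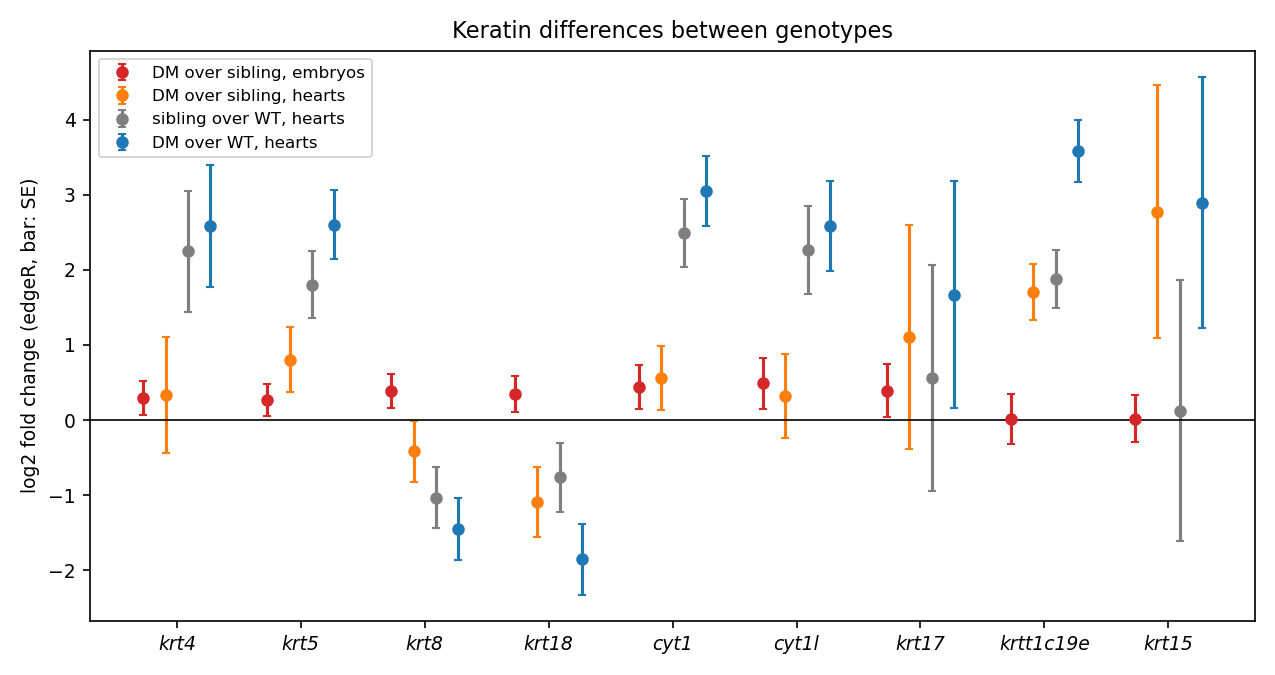
Fitted log2 fold change (edgeR, bars give the SE) of each keratin in embryos and in 3 comparisons of hearts. Embryo values lie between 0.02 and 0.49, while DM over WT in hearts reaches 3.59 for krtt1c19e and -1.86 for krt18; the comparisons share control libraries and none of the values shown passed edgeR.

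Sibling against WT hearts gave the same 5 genes without overlap above WT, where 27.5% of genes were, and krt8 below it, where 7.35% were. The comparison shares the WT libraries with DM against WT. Log2 differences were 2.49 ± 0.46 for cyt1, 2.27 ± 0.59 for cyt1l, 2.25 ± 0.81 for krt4, 1.88 ± 0.39 for krtt1c19e and 1.80 ± 0.45 for krt5. edgeR called no keratin and no gene (0.0%; 833 of 16998, or 4.9%, at an unadjusted p under 0.05), with adjusted p-values of 0.91 for these 5. DESeq2 called 50 genes (0.294%), among them cyt1 (adjusted p = 0.0022) and krtt1c19e (0.036). The authors' deposited table calls cyt1 alone of the keratins (adjusted p = 0.027), among 24 of 14124 genes (0.17%).

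These sibling calls depended on single libraries. Without WT heart 1 or sibling heart 1 DESeq2 called no keratin, without WT heart 3 it called 4 (krt4, krt5, cyt1 and cyt1l) among 84 of 11765 genes (0.714%), and krtt1c19e was lost in every such fit. Without the sibling and DM hearts numbered 1, none of the 17 genes called (0.238%) was a keratin.

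DM against sibling hearts, the comparison of animals from the same crosses, had krt5, krtt1c19e and cyt1 without overlap above the siblings (15.8% of genes) and krt8 and krt18 below them (15.0%). For krtt1c19e the log2 difference was 1.71 ± 0.38, for krt5 0.80 ± 0.43, for krt18 -1.09 ± 0.46 and for krt4 0.34 ± 0.77. edgeR called no keratin and no gene, with adjusted p-values of 1.00 for all 9 and an unadjusted p under 0.05 for krtt1c19e and krt18 and for 568 genes in all (3.34%). DESeq2 called krtt1c19e (adjusted p = 0.031) as 1 of 75 among 12714 genes (0.59%), and the authors' deposited table also calls it alone of the 9 (0.010), among 103 of 12840 genes (0.802%). The DESeq2 call was lost with any 1 heart library left out and without the hearts numbered 1.

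The make-up of the keratin counts shifted with these differences. krt8 and krt18 summed to 730.3 and 437 CPM in WT hearts, 455 and 287 CPM in sibling hearts and 231 and 259 CPM in DM hearts, while the other 7 genes summed to 138 and 421, 1790.1 and 1347, and 1568 and 2742 CPM in the same order. As a fraction of all keratin counts, krt8 and krt18 gave 0.841 and 0.509 in WT hearts, 0.203 and 0.176 in sibling hearts and 0.128 and 0.0862 in DM hearts. In embryos this fraction was 0.0711 to 0.0794, below every heart.

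**Figure D4:**
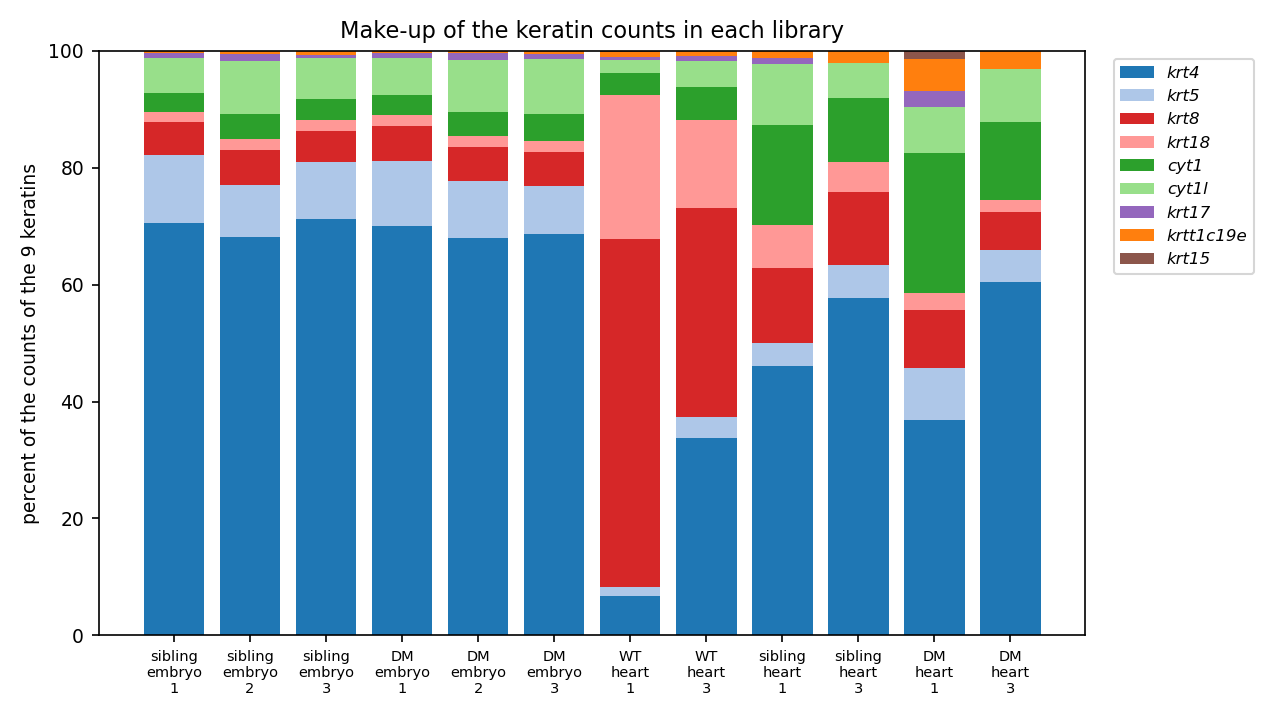
Percent of the counts of the 9 keratins that each gene gave in every library, as stacked bars; heights are counts and not corrected for transcript length. Embryos are alike, WT hearts are mostly krt8 and krt18, and sibling and DM hearts hold larger parts of krt4 and cyt1.

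The effect of the mutations was compared between tissues as an interaction, DM against sibling in hearts minus the same in embryos. Fitted values were 1.66 ± 0.52 for krtt1c19e, -1.46 ± 0.49 for krt18, -0.83 ± 0.44 for krt8, 0.51 ± 0.42 for krt5 and 0.03 ± 0.62 for krt4 (log2). None of the 9 passed edgeR (adjusted p = 0.66 for krtt1c19e, 0.70 for krt18 and 0.89 for krt8), where 9 of 19689 genes did (0.0457%), nor DESeq2, where 90 of 17398 genes did (0.517%). With the replicate block 48 genes passed (0.244%), and krtt1c19e came to an adjusted p of 0.076.

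Genes of other epithelial lists were read beside the keratins in hearts. The 16 periderm genes summed to 81.8 and 254 CPM in WT hearts, 917 and 491 CPM in sibling hearts and 509 and 639 CPM in DM hearts, against 2834 to 4691 CPM in embryos. WT hearts were again the low ones, and 1 periderm gene had a count of 0 in WT heart 1 and none in the other hearts. In DM over WT, 15 of the 16 had a positive fitted difference (median 1.47 on the log2 scale), as had 8683 of all 16998 genes. DESeq2 called none of the 16, where 0.846% of 15020 genes were called, and edgeR called no gene in DM over WT. In DM over sibling hearts only 4 of the 16 had one, as had 8958 of all 16998 genes. The median was -0.44, beside 0.04 over all genes. DESeq2 called none of them, where 0.59% of 12714 genes were called, and edgeR called no gene there. In the summed level sibling heart 3 lay below both DM hearts and sibling heart 1 above them. The median of the 9 keratins in that comparison was 0.56, but 0.13 without sibling heart 3 and 1.03 without sibling heart 1. icn2 was at 10.1 and 16.5 CPM in WT, 127 and 32.1 CPM in sibling and 135 and 55.3 CPM in DM hearts (DESeq2 adjusted p = 0.057 for DM over WT).

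The 18 basal epidermis genes summed to 962 and 935 CPM in WT hearts, 1834 and 965 CPM in sibling hearts and 1316 and 1160.0 CPM in DM hearts, without the order seen for krtt1c19e. A large part of these sums was lama5, at 618 and 212 CPM in WT, 275 and 363 CPM in sibling and 415 and 654 CPM in DM hearts. In DM against sibling hearts 5 of the 16 tested had a positive fitted difference, with a median of -1.22 on the log2 scale, beside 0.04 over all genes. Of the 16, 6 had an unadjusted p under 0.05 by edgeR, against 3.34% of all genes. edgeR called no gene in this comparison. DESeq2 called frem2a as lower (-3.29 on the log2 scale, adjusted p = 0.029), where 0.448% of all genes were. frem2a stood at 146 and 51.1 CPM in sibling hearts and at 10.3 and 10.1 CPM in DM hearts. In WT hearts it was at 9.89 and 74.1 CPM, so WT heart 1 was as low as the DM hearts. For DM over WT its adjusted p by DESeq2 was 0.21. In the summed level only sibling heart 1, a library with lens transcripts, lay above the DM hearts, and sibling heart 3 lay below both. This list was not read without the hearts numbered 1. In DM against WT hearts the median was -0.40. There DESeq2 called none of this list, where 0.846% of 15020 genes were called, and edgeR called no gene.

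The 14 ionocyte and mucous cell genes summed to 500.4 and 438 CPM in WT hearts, 729 and 398 CPM in sibling hearts and 654 and 588 CPM in DM hearts. Most of each sum came from atp6v1aa and atp6v1ba, so it says little about the other genes of the list. In WT hearts atp6v1aa gave 300 and 227 CPM and atp6v1ba 189 and 187 CPM, and in DM hearts they gave 441 and 222 and 167 and 180 CPM. Of the 9 tested in DM over WT, 8 had a positive fitted difference (median 2.69 on the log2 scale), as had 8683 of all 16998 genes. An unadjusted p under 0.05 by edgeR was seen in 5, against 7.38% of all genes. DESeq2 called none of the 9, where 0.846% of 15020 genes were called, and edgeR called no gene in DM over WT. In that comparison gcm2 was at a count of 0 in both WT hearts and at 2.57 and 2.35 CPM in DM hearts. A gene at 0 in WT hearts passes the filter on low counts only through groups where it is higher. Its value over WT can then only be positive. The filter kept 9 of the 14 genes, so the counts and median above are not read as a result on this list.

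Hatching gland genes summed to 497 and 588 CPM in WT hearts, 1295 and 544 CPM in sibling hearts and 714 and 1099 CPM in DM hearts. DESeq2 called the hatching enzymes he1a (3.81 on the log2 scale, adjusted p = 0.015) and he1b (3.65, 0.027) as higher in DM than in WT hearts, and prdm1a, a transcription factor on that list, as lower (-3.01, 0.0014). These are 2 higher and 1 lower of 8, where 0.366% of all genes were called higher and 0.479% lower, and 4 of the 8 had a positive value. In sibling against WT hearts DESeq2 likewise called he1a (3.93, adjusted p = 0.026) and he1b (4.02, 0.024) as higher, where 0.218% of all genes were. In DM against sibling hearts DESeq2 called only prdm1a of this list, as lower (-2.80, adjusted p = 0.0046), where 0.448% of all genes were. prdm1a was named after its values were seen. The 5 genes of epicardium and mesothelium, coverings of the heart that express simple keratins in mammals, summed to 68.9 and 30.9 CPM in WT, 66.3 and 42.6 CPM in sibling and 10.7 and 22.4 CPM in DM hearts. DM hearts were the lowest in this sum as in krt8 and krt18. In DM over WT DESeq2 called 0 of the 5 genes, where 0.846% of 15020 genes were called, and edgeR called no gene. From WT to sibling hearts the 2 sums differed, since the mean of krt8 with krt18 went from 584 to 371 CPM and that of the epicardium genes from 49.9 to 54.5 CPM. A large part of the epicardium sum was aldh1a2, at 52.2 and 20.6 CPM in WT, 31.6 and 32.4 CPM in sibling and 6.07 and 16.2 CPM in DM hearts. The part of periderm, ionocyte, hatching gland, epicardium or lens cells in the keratin levels of hearts was not tested.

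**Figure D5:**
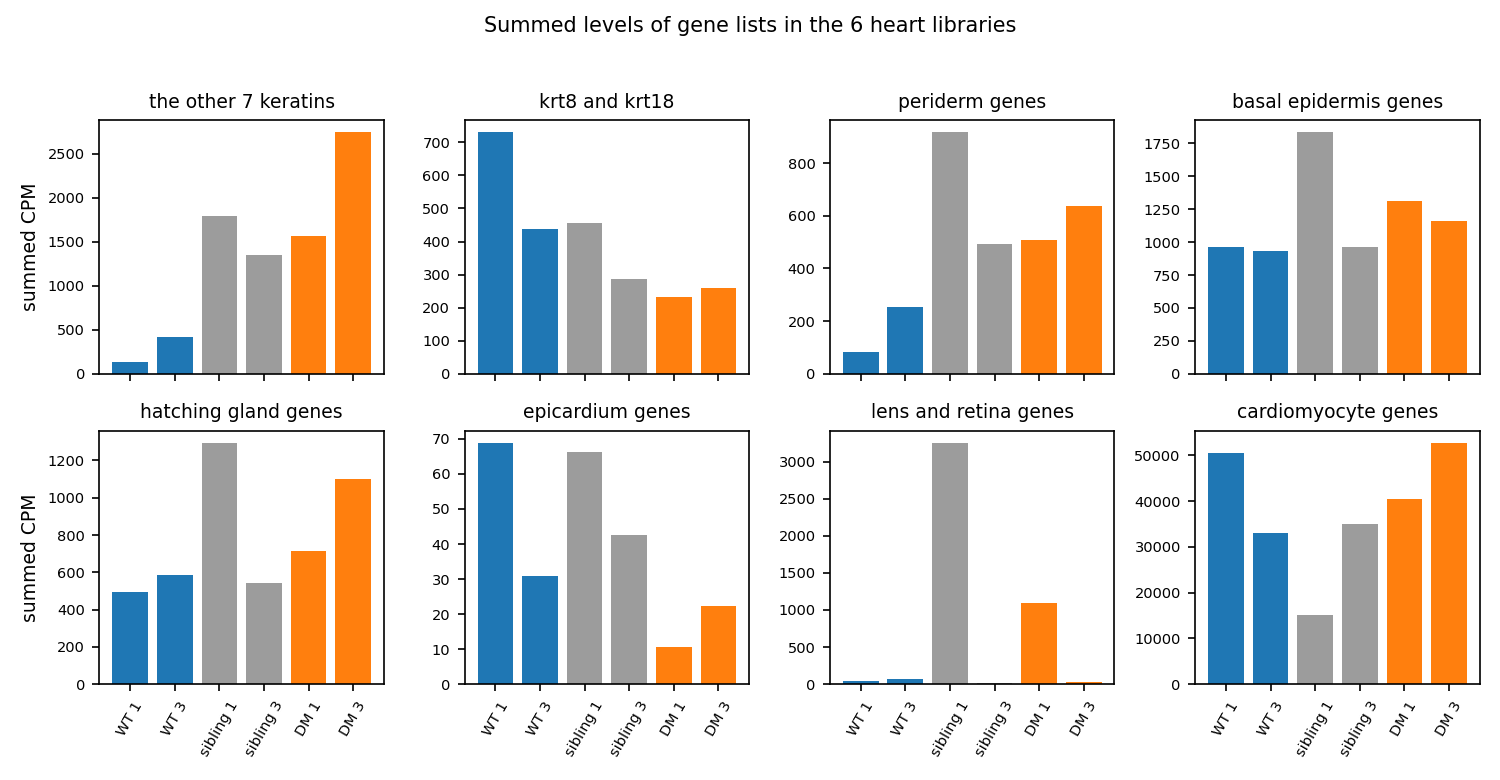
Summed CPM of keratins and of marker lists in each of the 6 hearts, a panel per list with its own linear axis from 0. The 7 keratins other than krt8 and krt18, and the periderm genes, are lowest in both WT hearts, whereas krt8 with krt18 and the epicardium genes are lowest in the DM hearts; lens genes stand out in sibling heart 1 and DM heart 1.

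Genes with profiles like those of 3 keratins were sought among 13958 genes, by the root mean square difference of log2(CPM + 1) over the 12 libraries, each gene centred within embryos and within hearts. For krt4 the nearest outside the 9 were serpina1l (0.341), si:dkey-33i11.4 (0.372), anxa1c (0.375), agr1 (0.378) and tfa (0.388), where the median gene was at 1.15. Of these, anxa1c and agr1 are on the periderm list, and anxa1c stood at 1.01 and 13.2 CPM in WT, 63.2 and 42.9 CPM in sibling and 52.0 and 89.7 CPM in DM hearts. The nearest gene, serpina1l, as well as si:dkey-33i11.4 and tfa, is on none of the lists. tfa stood at 12.7 and 61.5 CPM in WT, 162 and 108 CPM in sibling and 71.5 and 157 CPM in DM hearts. For krt8 they were pcolcea (0.172), sfrp5 (0.193), gpx1a (0.201), tsc22d3 (0.209) and mdh1aa (0.210), with a median of 0.623 over genes, and its partner krt18 was at 0.213. Likewise outside the 9, those of krtt1c19e were f2rl1.1 (0.466), spint2 (0.482), prkcda (0.485), mctp2b (0.493) and TMEM30B (0.493), with a median of 1.12. Among keratins, krtt1c19e was nearest to krt5 (0.489) and cyt1 (0.509) and krt4 to cyt1l (0.445) and krt5 (0.460), while krt4 and krt8 were 1.47 apart.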

How the data were processed

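The authors deposited raw counts per gene for each library, which every test used, and, per the file headers, a log2 fold change and an adjusted p-value for each pairwise comparison, whose sign was turned where WT was the numerator. Per the submitters' processing notes, the tools were STAR 2.3.0e and HTSeq 0.6.0 and the build GRCz10, with no role given. Per the labels' protocols, heart RNA was amplified before library construction and embryo RNA was not.

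After TMM scaling and the filterByExpr filter, counts were tested with edgeR 4.0.16 (quasi-likelihood) in R 4.3.3, with Benjamini-Hochberg FDR at 0.05 over all genes tested. Each SE is the size of the log2 fold change over the root of its F. Embryos and hearts were fitted apart, the interaction over 10 libraries and the tissue comparison over 12. p-values measure the spread between these libraries, which may be technical. DESeq2 1.42.0 (Wald test), no filter, other size factors, left-out libraries, a replicate block and a removed span trend (lowess, span 0.3) were alternatives. Some of the fits were checked on counts simulated from the fitted spread, without differences between pairs. That check cannot show how the blocked fit handles real pairs.

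Equally numbered embryo libraries correlated at 0.848, 0.676 and 0.260 in their deviations across genes, each above 0.1, so the numbers were taken as pairs, although the labels state no pairing. For sibling 2 and DM 3 the correlation was 0.516. The members and lists were chosen with earlier results of these data known. Named genes are the 9 keratins, up to 3 genes per list with the smallest blocked embryo p and the 2 highest in hearts, and the 5 genes nearest to each of 3 keratins, with prdm1a added after its values were seen. Of list symbols, 3 of 19 for periderm and 2 of 12 for desmosome were not matched. Fits without the hearts numbered 1, DESeq2 with left-out hearts or a block, the span trend in hearts and a crossed block were added after the data were seen.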

Additional observations from a re-analysis of the deposited data

Results flagged for a closer look

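The difference between tissues in krt8 was marked because its libraries moved in opposite directions. All 3 DM embryos lay above all 3 sibling embryos, which held for 3.02% of 17831 genes. Both DM hearts lay below both sibling hearts, which held for 15.0% of 16998 genes. The DM against sibling effect in hearts minus that in embryos was -0.83 ± 0.44 on the log2 scale, with an adjusted p of 0.89 by edgeR, 0.67 by DESeq2 and 0.34 with the replicate block, so the difference did not pass a test of its own. krt18, whose embryo groups overlap, had a value of -1.46 ± 0.49.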

How the results depend on the processing

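Depth limits krt15 and krt17 in hearts, where single libraries rest on a few counts, and with 2 hearts a group the lone library left in an arm was assumed to vary like the other groups. Over all alternatives, 815 fitted values of keratins kept their direction and side of the threshold, 63 newly passed it, 4 no longer passed it and 72 changed sign. Of the CPM levels, 146 moved by less than the spread between libraries with TMM-scaled library sizes and 7 by more. Where a cause is not plain from a left-out library, the cause was not tested.

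In embryos DESeq2 called 34 genes, the fit with the replicate number as a block 2453, and that fit with the span trend removed 2311. The block changed no call of a keratin there. In these last settings and with the span trend alone, krt15 was at -0.020, -0.20 and -0.19 and krtt1c19e at -0.020, -0.20 and -0.20 (log2). With libraries or pairs left out, 0 to 7 keratins and 0 to 3119 genes were called, and krt15 ran from -0.26 to 0.27 and krtt1c19e from -0.26 to 0.28.

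In DM against sibling hearts DESeq2 called 1 keratin and 75 genes, 50 genes and no keratin with the replicate block (krtt1c19e at an adjusted p of 0.19) and 6 genes without the hearts numbered 1, and edgeR without a filter called 3. krt4 was at -0.0026 and -0.023 with the block in edgeR and DESeq2, and krt15 at -0.64 and -0.70 without the hearts numbered 1. Left-out libraries gave 0 to 125 genes, -0.70 to 0.92 for krt4, -1.29 to 3.69 for krt15, -1.95 to 5.66 for krt17 and -0.33 to 1.03 for cyt1l.

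In DM against WT hearts, keratins and genes called were 5 and 127 by DESeq2, 5 and 131 by DESeq2 with the block (krt4 gained, krt18 lost), 4 and 36 by DESeq2 without the hearts numbered 1, and 1 and 3 by edgeR with no filter. Without the hearts numbered 1, krt15 was at -1.09 and -1.14 and krt17 at -1.36 and -1.41 in edgeR and DESeq2, and with the block krt17 was at -0.0036 and -0.23. Left-out libraries gave 0 to 7 keratins, 0 to 263 genes, -1.15 to 8.71 for krt15 and -1.39 to 2.55 for krt17.

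In sibling against WT hearts, keratins and genes called were 2 and 50 by DESeq2 and 2 and 20 with the block (krt4 gained, krtt1c19e lost). Without the hearts numbered 1, krt15 was at -0.44 and -0.45 and krt17 at -3.94 and -4.03 in edgeR and DESeq2. krt17 was at -1.27 and -1.56 with the block, and krt15 at -0.066 with the span trend removed. Left-out libraries gave 0 to 4 keratins, 0 to 90 genes, -0.86 to 5.96 for krt15 and -4.04 to 1.53 for krt17. Equal numbers in hearts correlated at 0.287 for sibling and DM, -0.0173 for WT and DM and -0.243 for WT and sibling. The value for sibling and DM lay above the 0.1 used for embryo pairs, and the values with WT lay below it. The sibling and DM hearts numbered 1 were also the libraries with lens transcripts. WT hearts thus shared only a number with the others, and the labels state no pairing of hearts. A block with the WT numbers crossed called no keratin and 0 genes, with krt15 at -0.30 and krt17 at -0.87.

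For the difference between tissues, 17 genes were called with DESeq2 size factors in edgeR, 90 by DESeq2, 14 with no filter and 48 with the block, and 0 to 41 with a library left out. krt4 was at -0.022 with either use of DESeq2 and -0.18 with the block, and krt15 was at -0.65 and cyt1l at 0.98 without the hearts numbered 1. Left-out libraries gave -1.04 to 0.64 for krt4, -1.22 to 3.64 for krt15, -2.27 to 5.19 for krt17, -0.34 to 0.69 for cyt1 and -0.87 to 0.52 for cyt1l.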

Other observations

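Besides the 9 genes, 13 others carry a symbol beginning with krt, and they summed to 760.2 to 943 CPM in embryos and to 185 to 388 CPM in hearts. In control hearts against sibling embryos edgeR called 8 of the 10 tested with this fit as lower and 1 as higher, where 30.5% of all genes were lower and 26.6% higher. The exception was krt94, at 8.28 to 21.3 CPM in embryos and at 109 to 272 CPM in hearts, with its highest level of 272 CPM in WT heart 1. In the blocked embryo fit krt91 (-0.64 ± 0.15 on the log2 scale, adjusted p = 0.0080) and krt1-19d (-0.62 ± 0.15, adjusted p = 0.0097) were called lower in DM and KRT80 higher (0.49 ± 0.16, adjusted p = 0.039), and without the block none was. krt91 shares 2182 bp of its span with cyt1, and it stood at 133 CPM in DM heart 1 against 2.01 to 12.7 CPM in the other hearts. In that same library krt15 and krt17 had their highest heart values.

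Intermediate filament genes of other tissues, such as the neurofilament gene nefmb and the neuronal inab, were called lower in DM embryos in the blocked fit (-0.89 ± 0.20, adjusted p = 0.0051, and -0.65 ± 0.18, adjusted p = 0.020). They were 2 of 11 tested genes of that list, none of which was called higher, where 9.39% of all genes were called lower and 4.37% higher.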
